A study of Homo sapiens with 12 samples.

Results

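Phospholipid flippases were examined as 9 named genes, all of which had a row of their own among the 22465 named genes and 66212 rows measured on the arrays: ATP10D, ATP10A, ATP8B1, ATP8B2, ATP9A, ATP9B, ATP11A, ATP11B and the flippase subunit gene TMEM30A. ATP10D was chosen because its level fell in siRNA-treated Hep3B cells and much less in siRNA-treated Huh7 cells, so its values are given as a description with no test, and the other 8 genes were taken by family membership. The question was whether that line-specific fall extended to the relatives. RNA was measured on 12 arrays with 3 per group: Hep3B cells given an siRNA, Hep3B cells given negative control RNA, Huh7 cells given an siRNA and Huh7 cells given negative control RNA. Both are established lines from human hepatocellular carcinoma, and RNA of every group was taken 48 h after transfection. The series title names a long non-coding RNA, but the sample labels do not name the target of the siRNA, and the level of that RNA is not analysed here. Whether replicate arrays stem from independently grown cells is not labelled, and a p-value then reflects array-to-array spread alone, which may be technical.

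Flippases of the P4 family of P-type ATPases use ATP to move lipids from the outer or luminal leaflet of a membrane to its cytosolic leaflet, which keeps the leaflets unlike each other. Most of them need the small subunit encoded by TMEM30A (CDC50A) to fold and to leave the endoplasmic reticulum, while ATP9A and ATP9B reach their membranes without it. ATP10D and ATP10A transport glucosylceramide, and ATP10A also phosphatidylcholine. ATP8B1 lies in the canalicular membrane of hepatocytes, where bile leaves the cell, and its loss causes an inherited cholestasis.

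Promoter sequences from RefSeq (build GRCh38.p14) were held for 6 of the 9 genes. They are printed for ATP10D, for ATP10A of the same subfamily, and for ATP11A and ATP9B, whose levels were also lower in siRNA-treated Hep3B cells. Each line gives the 250 bases before the annotated start of the gene, 5′ to 3′ on the strand of the gene, and capitals mark matches to the motifs searched on both strands. ATP10D lies at chr4:47485025-47485274 on the plus strand, ATP10A at chr15:25863328-25863577 on the minus strand, ATP11A at chr13:112689788-112690037 on the plus strand and ATP9B at chr18:79069144-79069393 on the plus strand.
ATP10D: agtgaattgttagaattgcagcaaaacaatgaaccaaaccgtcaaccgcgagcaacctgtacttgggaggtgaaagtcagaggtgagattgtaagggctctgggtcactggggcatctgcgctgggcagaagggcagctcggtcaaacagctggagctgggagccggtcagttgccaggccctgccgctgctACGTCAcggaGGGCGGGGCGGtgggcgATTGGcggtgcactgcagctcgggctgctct
ATP10A: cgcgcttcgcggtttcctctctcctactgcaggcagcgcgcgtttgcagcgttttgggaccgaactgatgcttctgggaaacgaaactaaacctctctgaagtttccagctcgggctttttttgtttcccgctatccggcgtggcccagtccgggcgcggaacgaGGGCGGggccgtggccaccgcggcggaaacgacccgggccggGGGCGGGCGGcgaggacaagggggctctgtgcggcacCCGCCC
ATP11A: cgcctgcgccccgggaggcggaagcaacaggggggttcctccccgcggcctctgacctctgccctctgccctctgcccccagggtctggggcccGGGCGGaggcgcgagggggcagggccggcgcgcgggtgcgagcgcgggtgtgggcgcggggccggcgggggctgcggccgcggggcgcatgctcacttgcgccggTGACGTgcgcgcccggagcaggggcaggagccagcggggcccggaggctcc
ATP9B: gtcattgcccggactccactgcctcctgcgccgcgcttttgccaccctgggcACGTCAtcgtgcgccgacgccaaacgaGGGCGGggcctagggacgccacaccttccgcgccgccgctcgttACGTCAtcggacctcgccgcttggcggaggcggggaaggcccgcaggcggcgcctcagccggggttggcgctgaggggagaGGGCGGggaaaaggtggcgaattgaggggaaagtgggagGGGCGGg

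The window of ATP10D held 14 CpG dinucleotides and 60% G and C, against 31 and 66.8% for ATP10A, 33 and 81.6% for ATP11A and 31 and 71.6% for ATP9B. Over all 35116 promoters of the table the median was 11 CpG dinucleotides (quartiles 3 and 23) and 58% G and C (quartiles 46.4% and 68%). ATP10D held 1 inverted CCAAT box, 2 overlapping matches to the GC box GGGCGG and 1 match to ACGTCA, the core of a cyclic AMP response element. ATP10A held 4 GC boxes and no other motif searched. ATP11A held 1 GC box and 1 ACGTCA on the other strand, and ATP9B held 3 GC boxes and 2 matches to ACGTCA. The CCAAT box occurred in 32% of all promoters, the GC box in 42.6% and ACGTCA in 7.1%. None of the 4 windows held the TATA box TATAAA (10.7% of all promoters), the E-box CACGTG (6.34%), the AP-1 site written as TGANTCA (6.57%), the TEAD site GGAATG (11.9%) or the full response element TGACGTCA (1.65%), of which ACGTCA is part. The windows of ATP9A and ATP8B2, searched but not printed, held no match to ACGTCA. ATP11A and ATP9B were printed for their lower levels, so the ACGTCA shared with ATP10D is a description. A link between a motif and a fall was not tested. A match describes letters in the window and does not show that a factor binds there.

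Levels are log2 array values after quantile normalization, and each gene's level was compared only with itself, since probes of different genes differ in brightness. The array medians before normalization lay between 3.82 and 3.94, and arrays of the same group correlated at r of 0.991 to 0.994. For Huh7 control array 1 the description gives Hep3B, against its title, source and cell line. Its r with its own group lay within the range just given, while arrays of different lines correlated at r of 0.947 to 0.961. Without that array ATP10D changed by -0.20 in Huh7 and by -2.40 in the difference between lines, and the counts of called relatives given below were the same. The highest mean of the 23 background rows was 5.50, and a level above it is called above background. By that measure 8 of the 9 genes were above background in all 4 groups, and ATP10A was not above it in any. No row was removed for being dim.

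ATP10D had levels of 7.48, 7.36 and 7.34 on the Hep3B siRNA arrays, against 10.01, 10.00 and 9.98 on the Hep3B control arrays. Every siRNA array lay more than 2 log2 units below every control array of that line. The groups averaged 7.40 ± 0.078 with siRNA and 10.00 ± 0.016 with control RNA (SD, n = 3 each), a log2 change of -2.60 ± 0.09 (SE; 95% interval -2.80 to -2.40), or 6.06-fold lower with siRNA. None of the 22465 named genes had a larger fall in that comparison. The interval and rank describe a gene that was chosen for this fall, and they test nothing. In bulk RNA, fewer cells that carry a transcript and less of it per cell cannot be told apart.

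In Huh7 cells ATP10D was low with and without siRNA. Its levels were 6.89, 7.00 and 6.76 on the siRNA arrays, against 7.00, 6.95 and 7.22 on the control arrays, so the groups overlapped. The means were 6.88 ± 0.116 with siRNA and 7.06 ± 0.148 with control RNA (SD, n = 3 each), a log2 change of -0.17 ± 0.09 (SE; 95% interval -0.37 to 0.03), and 4123 named genes fell by more. The effect in Hep3B minus that in Huh7 was -2.43 ± 0.13 (SE; 95% interval -2.71 to -2.15), the lowest of the named genes. ATP10D was chosen on that pattern, so this interval and rank are description too. Among control arrays, ATP10D was 2.94 ± 0.09 higher in Hep3B than in Huh7 on the log2 scale (SE; 95% interval 2.74 to 3.14), which is 7.67-fold. In the order of group means, Hep3B control arrays came first, then Hep3B siRNA arrays, Huh7 control arrays and Huh7 siRNA arrays. The lowest Hep3B siRNA array, at 7.34, was still above the highest Huh7 control array, at 7.22, and the mean difference was 0.34, while the Huh7 groups overlapped each other. The Hep3B control arrays, the highest group, enter the Hep3B change, the difference between lines and the control comparison alike, so these values are not independent.

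**Figure D1:**
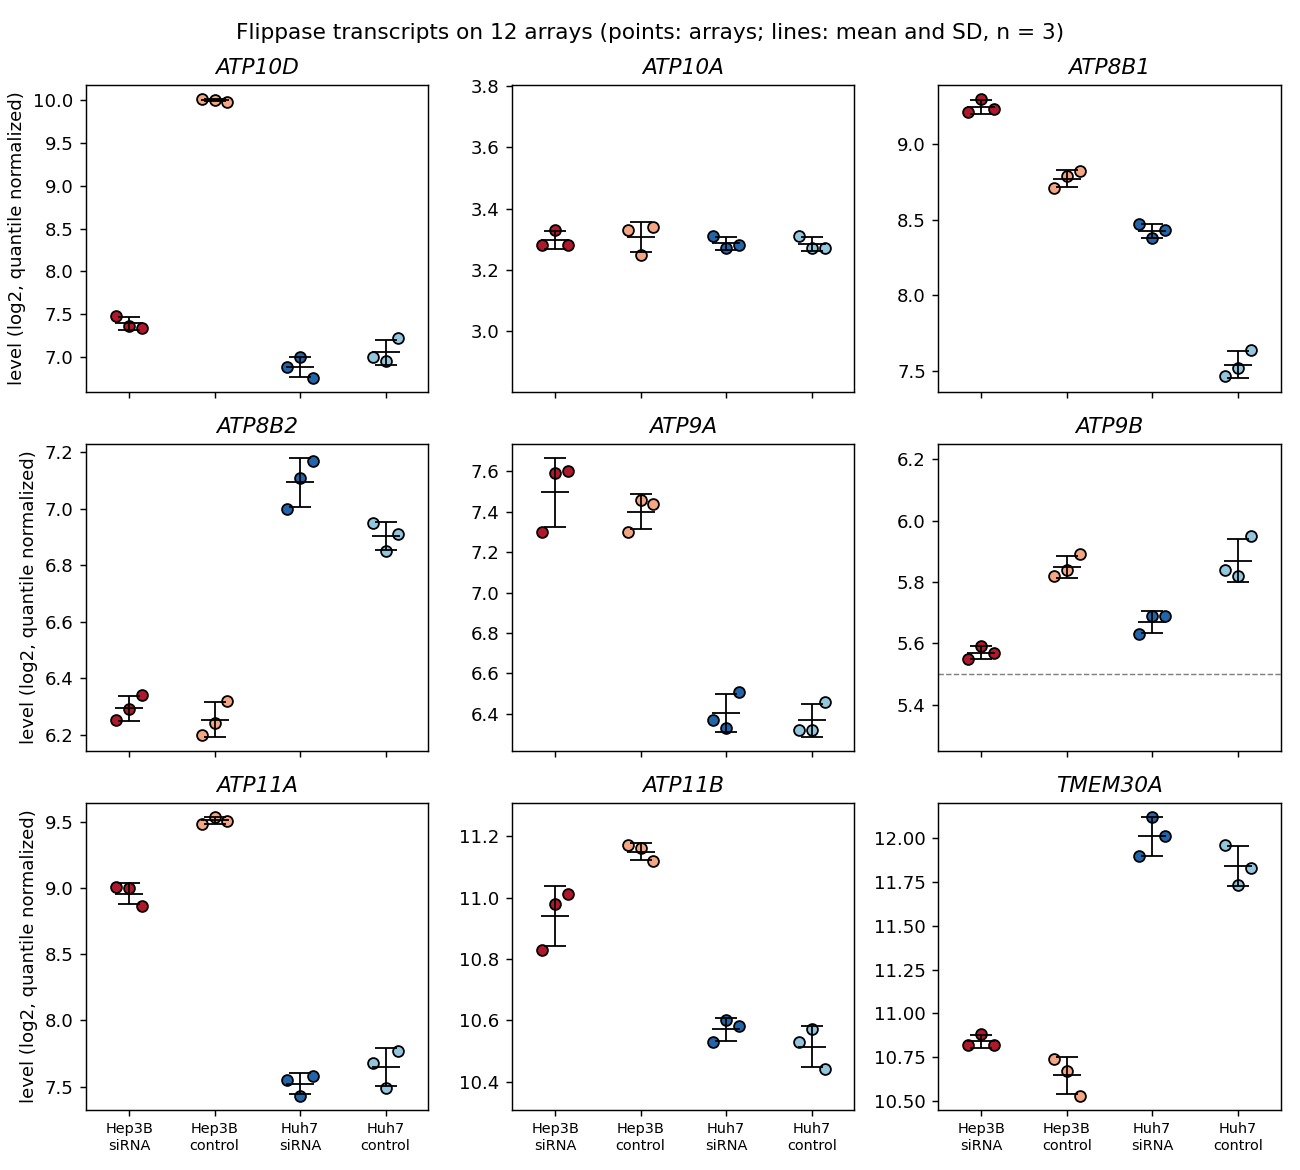
Levels of the 9 flippase genes (log2, quantile normalized; vertical axes differ between panels) on the Hep3B siRNA, Hep3B control, Huh7 siRNA and Huh7 control arrays; points are arrays and lines the mean and SD (n = 3). The dashed line in the ATP9B panel is the highest mean of the background rows (5.50); ATP10D stands at 9.98 to 10.01 on the Hep3B control arrays and at 7.48 or lower on all others.

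Among the 8 relatives, ATP11A and ATP9B fell and ATP8B1 rose in siRNA-treated Hep3B cells, each by far less than ATP10D. ATP11A, which moves phosphatidylserine and phosphatidylethanolamine inward at the plasma membrane, had levels of 9.01, 9.0 and 8.87 on the siRNA arrays, against 9.49, 9.54 and 9.51 on the control arrays. The groups did not overlap, and the log2 change was -0.55 ± 0.08 (SE; 95% interval -0.74 to -0.37; adjusted p = 0.00138), or 1.47-fold lower. ATP8B1, the canalicular flippase, had levels of 9.21, 9.30 and 9.23 with siRNA, against 8.71, 8.79 and 8.82 with control RNA. All siRNA arrays were above all control arrays, and the log2 change was 0.47 ± 0.07 (SE; 95% interval 0.32 to 0.63; adjusted p = 0.00113), or 1.39-fold higher.

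ATP9B, a flippase of the trans-Golgi network, had levels of 5.55, 5.59 and 5.57 on the Hep3B siRNA arrays, against 5.82, 5.84 and 5.89 on the control arrays. These lay just above the highest background row and did not overlap, with a log2 change of -0.28 ± 0.06 (SE; 95% interval -0.41 to -0.14; adjusted p = 0.0127). The ATP9B call ended without Hep3B control array 3 (-0.26, adjusted p = 0.0549) and with median centring of the arrays (-0.22, adjusted p = 0.121). The count of 3 called among the 8 relatives, 1 higher and 2 lower, stands beside 10.3% of all rows called in that comparison (5.63% higher and 4.66% lower), and 39.2% of the 7881 named rows above background (21.1% higher and 18.1% lower). The share among the relatives was near that of named rows above background, so it does not set them apart. At an unadjusted p under 0.05, 5 of the 8 would pass. For this and the later counts at unadjusted p, no share over all rows was computed, so they are description.

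The other 5 relatives did not pass the test in Hep3B. ATP11B, found on recycling endosomes, had 10.83, 10.98 and 11.01 with siRNA, against 11.17, 11.16 and 11.12 with control RNA. Its groups did not overlap, and the log2 change was -0.21 ± 0.07 (SE; 95% interval -0.36 to -0.06; adjusted p = 0.0838). TMEM30A, the shared subunit, had 10.82, 10.88 and 10.82 with siRNA, against 10.74, 10.67 and 10.53 with control RNA. Those groups did not overlap either, with a log2 change of 0.20 ± 0.09 (SE; 95% interval 0.01 to 0.39; adjusted p = 0.226). ATP9A, an endosomal flippase, overlapped between groups (7.30 to 7.60 with siRNA, 7.30 to 7.46 with control RNA) and had a log2 change of 0.10 (95% interval -0.12 to 0.31; adjusted p = 0.674). ATP8B2, which transports phosphatidylcholine at the plasma membrane, also overlapped (6.25 to 6.34 with siRNA, 6.20 to 6.32 with control RNA), with a change of 0.04 (95% interval -0.11 to 0.19; adjusted p = 0.834). ATP10A had 3.28 to 3.33 with siRNA and 3.25 to 3.34 with control RNA, within background on every array, so no change of it could be measured. Over the 8 relatives the changes ran from -0.55 to 0.47 with a median of 0.01, beside a median of -0.01 over all rows. The lowest 95% bound of any relative was -0.74, for ATP11A.

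In Huh7 cells ATP8B1 was the only relative called. Its levels were 8.47, 8.38 and 8.43 on the siRNA arrays, against 7.47, 7.52 and 7.64 on the control arrays, and the groups stood well apart. The log2 change was 0.89 ± 0.07 (SE; 95% interval 0.73 to 1.04; adjusted p = 2.96e-05), or 1.85-fold higher. The count of 1 in 8 stands beside 8.05% of all rows called in Huh7 (4.56% higher and 3.49% lower) and 32.6% of named rows above background (15.4% higher and 17.2% lower), and 3 of the 8 passed at an unadjusted p under 0.05. ATP8B1 was thus called higher in both lines, while ATP10D was lower in Hep3B.

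ATP9B in Huh7 had 5.63, 5.69 and 5.69 with siRNA, against 5.84, 5.82 and 5.95 with control RNA. The groups did not overlap, but the change of -0.20 ± 0.06 (SE; 95% interval -0.33 to -0.06) missed the threshold (adjusted p = 0.0785). ATP8B2 had 7.00, 7.11 and 7.17 with siRNA, against 6.95, 6.85 and 6.91 with control RNA, also without overlap, and a change of 0.19 ± 0.07 (SE; 95% interval 0.04 to 0.34; adjusted p = 0.149). ATP11A overlapped, with 7.55, 7.43 and 7.58 on siRNA arrays and 7.68, 7.49 and 7.77 on control arrays, and its change was -0.13 ± 0.08 (SE; 95% interval -0.31 to 0.06; adjusted p = 0.491). TMEM30A overlapped as well, with 11.90, 12.12 and 12.01 on siRNA arrays and 11.96, 11.73 and 11.83 on control arrays, and a change of 0.17 ± 0.09 (SE; 95% interval -0.02 to 0.36; adjusted p = 0.32). ATP11B changed by 0.05 (95% interval -0.10 to 0.21; adjusted p = 0.759) and ATP9A by 0.04 (95% interval -0.17 to 0.25; adjusted p = 0.895). ATP10A again lay within background. When only rows above background were tested, ATP8B2 (adjusted p = 0.0355) and ATP9B (adjusted p = 0.0197) passed in Huh7 too, which raised the count to 3, and ATP11B passed in Hep3B (adjusted p = 0.0247).

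**Figure D2:**
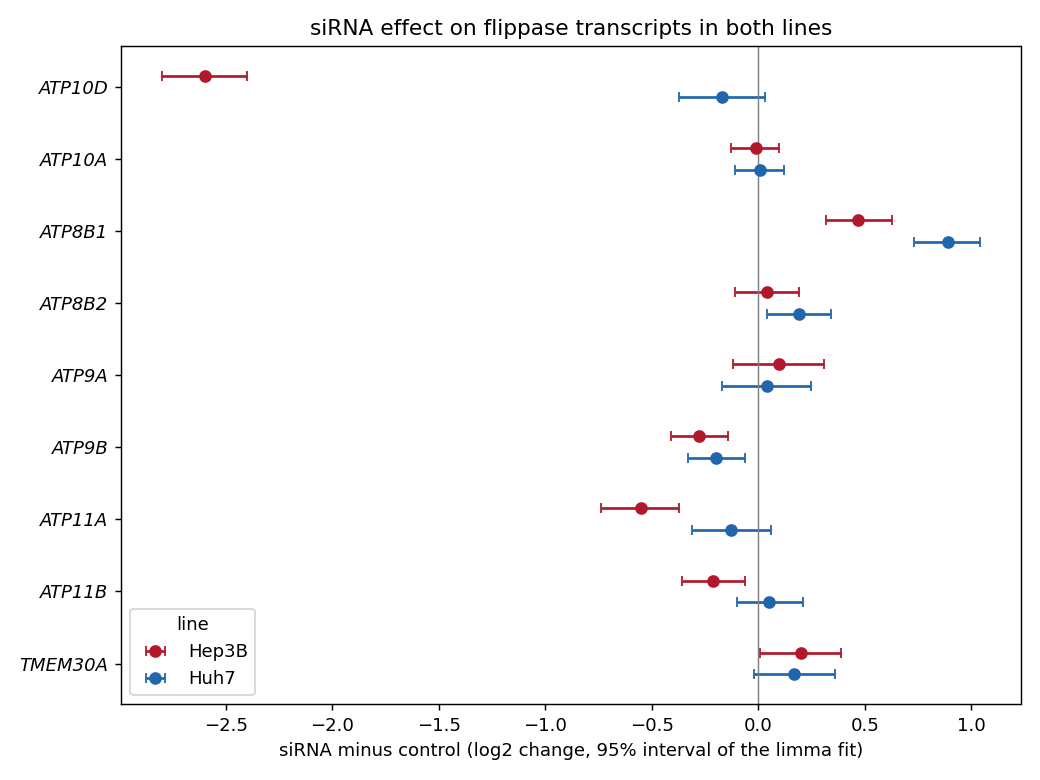
Change with siRNA (siRNA minus control, log2) of the 9 flippase genes in Hep3B (red, upper point of each pair) and Huh7 (blue, lower point), with 95% intervals of the limma fit. ATP10D in Hep3B stands at -2.60, while all other points lie between -0.55 and 0.89.

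The test of the difference between lines called none of the 8 relatives, beside 1.87% of all rows (0.927% higher and 0.945% lower) and 6.83% of named rows above background (3.63% higher and 3.2% lower). By limma, 3 of the 8 had an unadjusted p under 0.05, a description with no share over all rows at that threshold beside it. Each of those 3 had a lower value in Hep3B than in Huh7, which for ATP8B1 was a smaller rise and not a fall. For ATP11A the effect in Hep3B minus that in Huh7 was -0.43 ± 0.12 (SE; 95% interval -0.69 to -0.17; adjusted p = 0.118). For ATP8B1, which was called higher in each line, it was -0.41 ± 0.10 (SE; 95% interval -0.63 to -0.19; adjusted p = 0.0677). For ATP11B it was -0.27 ± 0.10 (SE; 95% interval -0.48 to -0.05; adjusted p = 0.255).

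The remaining relatives had differences of -0.15 for ATP8B2 (95% interval -0.36 to 0.07; adjusted p = 0.622), -0.08 for ATP9B (95% interval -0.27 to 0.11; adjusted p = 0.803), 0.06 for ATP9A (95% interval -0.24 to 0.36; adjusted p = 0.925) and 0.02 for TMEM30A (95% interval -0.25 to 0.29; adjusted p = 0.972). ATP10A had -0.02 (adjusted p = 0.968), at levels within background. The median over the 8 was -0.11, beside 0 over all rows. No 95% interval of a relative reached below -0.69. Tested among rows above background alone, ATP8B1 (adjusted p = 0.0152) and ATP11A (adjusted p = 0.0313) passed the test of the difference.

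Without siRNA the lines differed in most flippases, as in most named rows above background. Of the 8 relatives, 6 were called between the control arrays, 4 higher and 2 lower in Hep3B. This stands beside 20.9% of all rows (9.9% higher and 11% lower) and 64.8% of named rows above background (29.1% higher and 35.7% lower). The share among the relatives was near the latter, so it does not set them apart. That comparison uses the same control arrays as the siRNA comparisons. ATP11A was higher in Hep3B by 1.87 ± 0.08 (SE; adjusted p = 2.68e-08; 3.65-fold) and ATP8B1 by 1.23 ± 0.07 (SE; adjusted p = 1.7e-07; 2.34-fold) on the log2 scale. ATP9A had 7.30, 7.46 and 7.44 on Hep3B control arrays, against 6.32, 6.32 and 6.46 on Huh7 control arrays, a difference of 1.03 ± 0.10 (SE; adjusted p = 9.37e-06; 2.05-fold). ATP11B was higher in Hep3B by 0.64 ± 0.07 (SE; adjusted p = 2.95e-05). TMEM30A ran the other way, 1.19 log2 units lower in Hep3B (-1.19 ± 0.09, SE; adjusted p = 1.16e-06; 2.29-fold), as did ATP8B2 (-0.65 ± 0.07, SE; adjusted p = 2.79e-05). The difference for ATP9B was -0.02 (95% interval -0.15 to 0.11; adjusted p = 0.891).

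**Figure D3:**
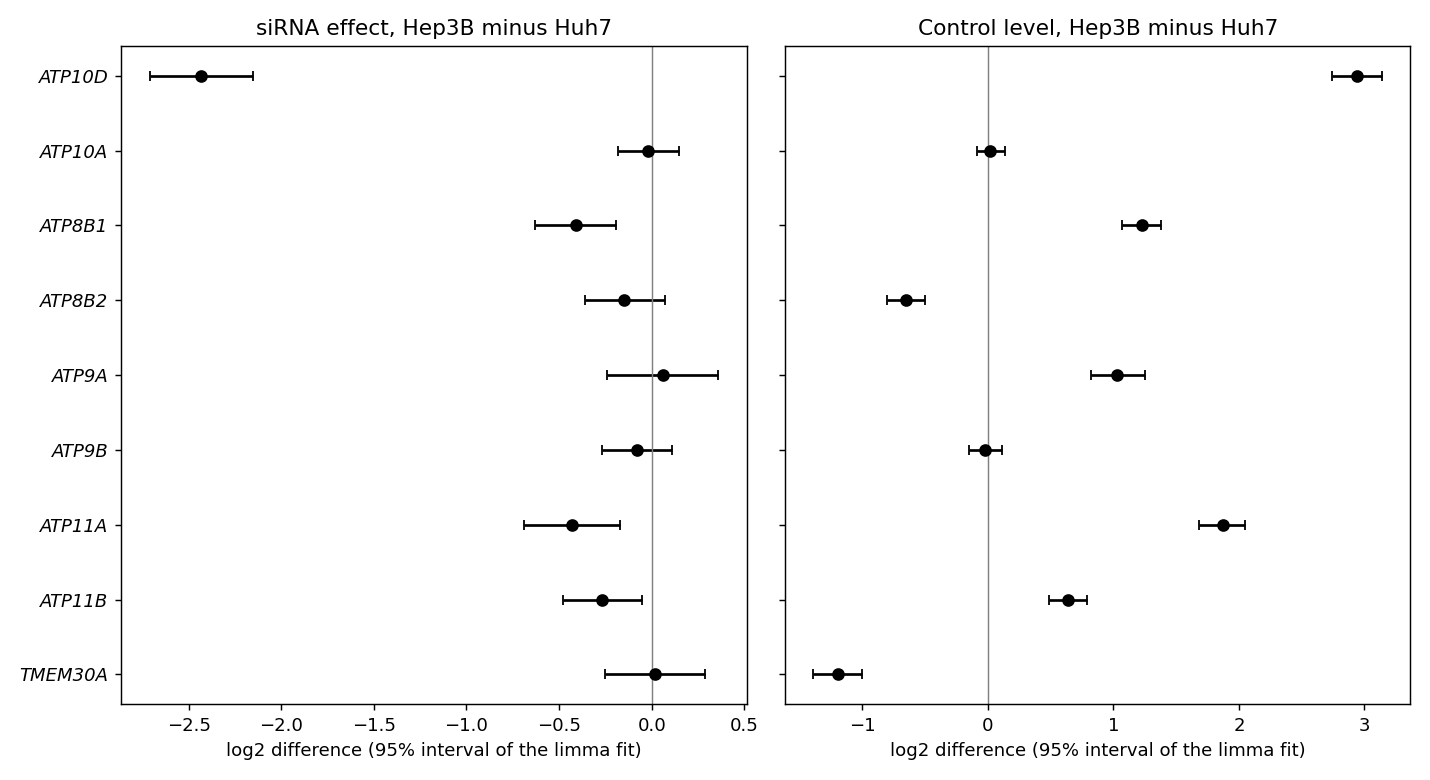
Left, siRNA effect in Hep3B minus siRNA effect in Huh7; right, level on Hep3B control arrays minus level on Huh7 control arrays (both log2, 95% intervals of the limma fit) for the 9 flippase genes. ATP10D has the lowest value on the left (-2.43) and the highest on the right (2.94); the relatives lie between -0.43 and 0.06 on the left and between -1.19 and 1.87 on the right.

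Other measured genes of the family were at background. A further 6 flippase and CDC50 genes were measured: ATP8A1, ATP8A2, ATP8B3, ATP8B4, ATP10B and TMEM30B. Their group means ran from 3.30 to 4.44, none was above background, and limma called none with siRNA in either line, at adjusted or unadjusted p. TMEM30B, a second flippase subunit, differed between control arrays by 0.47 (adjusted p = 0.000667), at levels within background.

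The genes with the profile most like that of ATP10D over the 12 arrays, among 7880 other named rows above background, were HAL (r = 0.987), CDH1 (0.976), DBR1 (0.976), CP (0.975), SLC35B3 (0.972) and UBE2E2 (0.972). They were chosen on that pattern, and the arrays share lines and treatments, so r is a description. Above background here refers to the mean over all 12 arrays. UBE2E2 averaged 5.60 with siRNA and 6.79 with control RNA in Hep3B. In Huh7 it averaged 4.92 with siRNA and 5.02 with control RNA, within background, so no change of it could be measured there. HAL, the enzyme that starts histidine breakdown, averaged 7.40 with siRNA and 8.83 with control RNA in Hep3B, and 7.15 with siRNA and 7.05 with control RNA in Huh7. CP, the copper-carrying plasma protein ceruloplasmin, averaged 9.71 with siRNA and 11.15 with control RNA in Hep3B, and 9.24 with siRNA and 9.62 with control RNA in Huh7. DBR1, the enzyme that opens intron lariats, averaged 9.06 with siRNA and 10.98 with control RNA in Hep3B, and 8.44 with siRNA and 9.13 with control RNA in Huh7. CDH1, the epithelial adhesion protein E-cadherin, averaged 10.11 with siRNA and 10.85 with control RNA in Hep3B, and 10.03 with siRNA and 10.13 with control RNA in Huh7. No other flippase was among the 6.

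**Figure D4:**
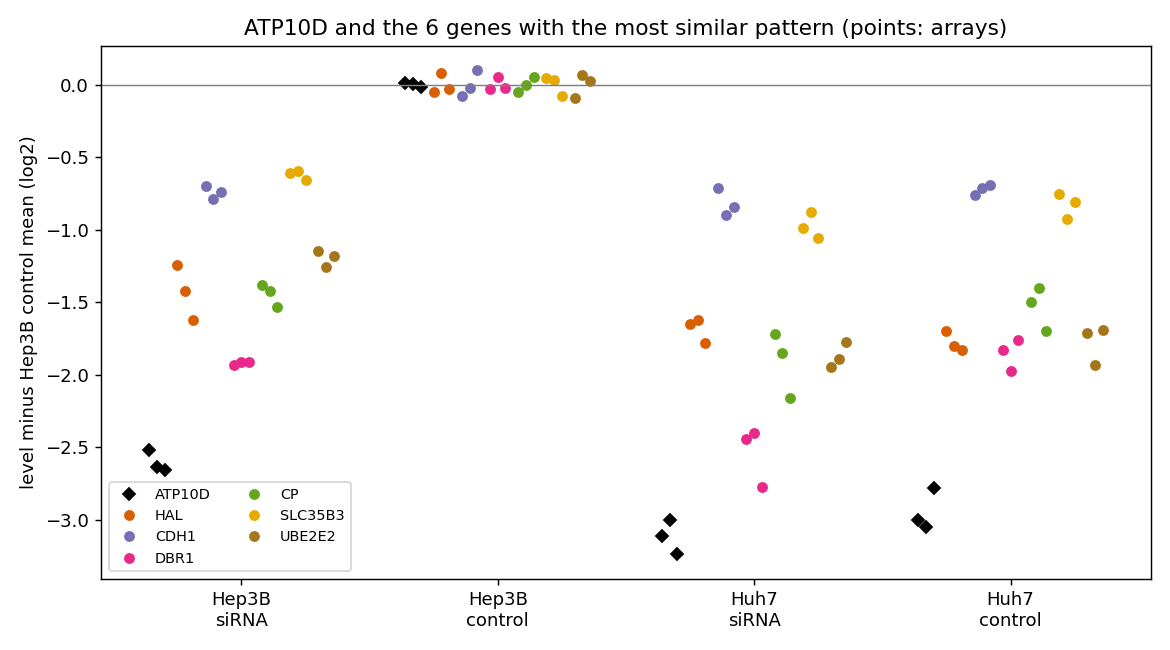
Level of ATP10D (black) and of the 6 genes most like it in pattern on each of the 12 arrays, each gene set to 0 at its Hep3B control mean (log2). All 7 genes are highest on the Hep3B control arrays; ATP10D has the widest range. UBE2E2 lay within background in both Huh7 groups.

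Counts of calls in the lists around the flippases stand beside the shares given above. These were 10.3% of all rows and 39.2% of named rows above background in Hep3B, and 8.05% and 32.6% in Huh7. None of the lists named in the next sentence is set apart by its count. Members above background numbered 11 of 11 for trafficking partners, 7 of 16 for scramblases, 4 of 16 for lipid exporters, 20 of 23 for sphingolipid genes, 15 of 25 for phospholipid synthesis and 8 of 15 for other P-type ATPases. Among 11 genes that guide flippases through the Golgi and endosomes, limma called 1 higher and 2 lower in Hep3B, and 2 higher and none lower in Huh7. ARL1, a small GTPase of the trans-Golgi network, fell by 0.66 in Hep3B (adjusted p = 0.00303), and its change in Huh7 was -0.18 (adjusted p = 0.473). ARFGEF1, an exchange factor for ARF GTPases, rose by 0.44 in Hep3B (adjusted p = 0.00118) and by 0.53 in Huh7 (adjusted p = 0.000504). MON2, a Golgi scaffold that binds ATP9A in retromer transport, fell in Hep3B (-0.35, adjusted p = 0.013), and its Huh7 change was 0.27 (adjusted p = 0.0547), which passed with median centring (0.37, adjusted p = 0.0442). That MON2 call ended without Hep3B control array 1 or siRNA array 3 (adjusted p of 0.0574 and 0.0607).

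Scramblases move lipids both ways without ATP, and of 16 measured 1 was called higher and 2 lower in Hep3B, and 2 lower in Huh7. ANO5 fell in both lines, by 1.23 in Hep3B (adjusted p = 7.82e-06) and by 0.62 in Huh7 (adjusted p = 0.000937). ANO6, the scramblase that exposes phosphatidylserine, fell by 0.86 in Hep3B (adjusted p = 0.00341) and changed by 0.00 in Huh7 (adjusted p = 0.998). On the Huh7 siRNA arrays ANO6 had 12.85, 12.86 and 12.21, against 12.61, 12.79 and 12.52 on the Huh7 control arrays, and without siRNA array 3 its Huh7 change was 0.21 (adjusted p = 0.185). The difference between lines for ANO6 missed the threshold (-0.86, adjusted p = 0.0758), but passed without that array (-1.08, adjusted p = 0.00203), with array weights (adjusted p = 0.0285) and among rows above background (adjusted p = 0.0257). Of 16 ABC transporters that export lipids, 2 were called lower in Hep3B and none in Huh7, where 4 had an unadjusted p under 0.05 by limma. ABCB4, which moves phosphatidylcholine into bile, was above background only on the Hep3B control arrays (mean 5.75), and was called lower on the Hep3B siRNA arrays (adjusted p = 0.000581), where it lay within background.

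Of 23 measured genes of glucosylceramide and sphingolipid metabolism, 3 were called higher and 6 lower in Hep3B, and 4 lower in Huh7, with medians of -0.14 and -0.08. PSAP, the precursor of the saposins, fell by 1.01 in Hep3B (adjusted p = 0.000616) and by 0.94 in Huh7 (adjusted p = 0.00137). ASAH1, the lysosomal acid ceramidase, fell by 0.99 in Hep3B (adjusted p = 2.21e-05), and its change in Huh7 was -0.28 (adjusted p = 0.0567). CERT1, which carries ceramide to the Golgi, rose by 0.45 in Hep3B (adjusted p = 0.00095), with -0.07 in Huh7 (adjusted p = 0.629). B4GALT5, which turns glucosylceramide into lactosylceramide, fell by 0.41 in Hep3B (adjusted p = 0.0126) and by 0.78 in Huh7 (adjusted p = 0.000331). Its Hep3B call ended without Hep3B control array 3 (adjusted p = 0.0558) and with median centring (adjusted p = 0.18). Among 25 genes of phospholipid synthesis, 2 were called higher and 7 lower in Hep3B, and 3 each way in Huh7. PTDSS1, a phosphatidylserine synthase, fell by 0.42 in Hep3B (adjusted p = 0.00415) and by 0.65 in Huh7 (adjusted p = 0.000355), while PTDSS2 rose by 0.53 in Hep3B (adjusted p = 0.00595). The PTDSS1 call in Hep3B ended with median centring (-0.29, adjusted p = 0.124). Of 15 other P-type ATPases, 1 was called lower in Hep3B (ATP2C1, the Golgi calcium pump, -0.56, adjusted p = 0.0013), and in Huh7 2 were higher and 1 lower.

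**Figure D5:**
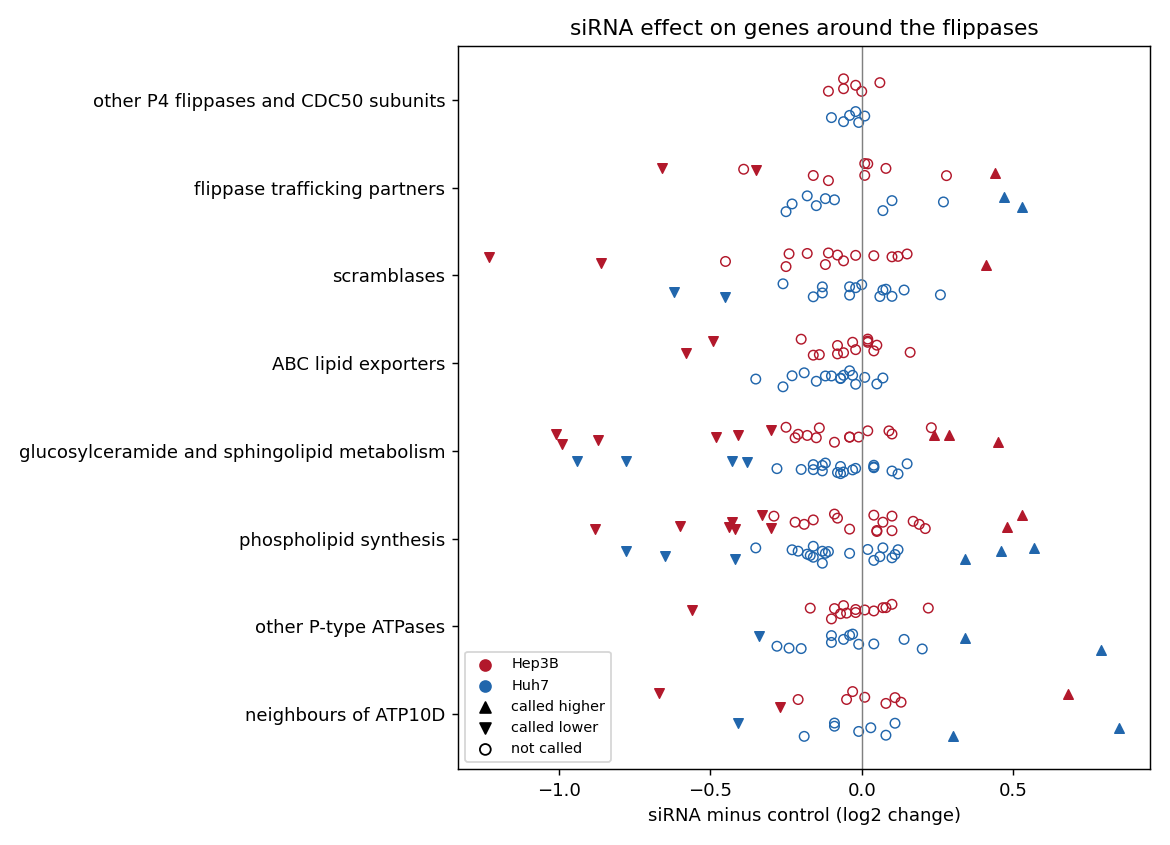
Change with siRNA (log2) of the measured genes of 8 lists around the flippases in Hep3B (red, upper row of each pair) and Huh7 (blue, lower row); triangles are genes called at an adjusted p under 0.05 and open circles the others. The 6 further flippase and CDC50 genes lie close to 0, while each other list holds calls in at least 1 line.

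The immediate protein-coding neighbours of ATP10D on chromosome 4 in RefSeq are COMMD8 and CORIN. COMMD8 changed in Hep3B by -0.21 (adjusted p = 0.29), and CORIN lay within background in all 4 groups, so no change of it could be measured. A list of 10 genes around ATP10D was also counted, which is not the set of nearest genes. It holds TEC and SLAIN2, which are not among the 5 nearest on either side, and lacks GABRA2 and COX7B2, which are. Of the 10, limma called 1 higher and 2 lower in Hep3B, beside 10.3% of all rows and 39.2% of named rows above background. In Huh7 it called 2 higher and 1 lower, beside 8.05% of all rows and 32.6% of named rows above background. It called none in the difference, where 2 had an unadjusted p under 0.05. Only 3 of the 10 were above background by their mean over all arrays. GABRB1, 1 of the 2 called lower in Hep3B, averaged 3.69 with siRNA and 3.96 with control RNA, within background. Its call ended in 5 of the 6 fits that left out 1 Hep3B array (adjusted p of 0.0513 to 0.115). SLAIN2, a microtubule-binding protein, rose by 0.68 in Hep3B (adjusted p = 0.0205) and by 0.85 in Huh7 (adjusted p = 0.00787), and its Hep3B call ended without any 1 of the 6 Hep3B arrays (adjusted p of 0.0541 to 0.067). NIPAL1, a magnesium transporter, was above background only on the Hep3B control arrays (mean 5.80), and was called lower on the Hep3B siRNA arrays (adjusted p = 0.00016), where it lay within background.

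Some markers of liver cells changed with siRNA as well. Of 13 measured hepatocyte markers, 12 were above background, and 2 were called higher and 4 lower in Hep3B and 9 lower in Huh7. In Hep3B, 5.63% of all rows were called higher and 4.66% lower, and 21.1% and 18.1% of named rows above background. In Huh7, 3.49% of all rows and 17.2% of named rows above background were called lower. The count of 9 in Huh7 stood above both shares. The list was chosen with earlier results of these data known and no set test was run, so the count is a description. ALB, the albumin gene, fell by 0.42 in Hep3B (adjusted p = 0.000234) and by 1.1 in Huh7 (adjusted p = 1.82e-06), with a difference between lines of 0.67 (adjusted p = 0.00118). The fibrinogen genes FGB and FGA ran opposite ways in the lines. FGB rose by 1.57 in Hep3B (adjusted p = 2.22e-05) and fell by 0.76 in Huh7 (adjusted p = 0.00365). FGA rose by 1.1 in Hep3B (adjusted p = 0.000328) and fell by 1.04 in Huh7 (adjusted p = 0.000697). FGG, the other fibrinogen gene, changed by 0.06 in Hep3B (adjusted p = 0.867) and by -1.28 in Huh7 (adjusted p = 6.76e-05). TTR, the transthyretin gene, changed by -1.62 in Hep3B (adjusted p = 2.04e-05) and by -0.59 in Huh7 (adjusted p = 0.0165). The Huh7 call of TTR ended without Huh7 control array 2 or 3 (adjusted p of 0.0529 and 0.0624). It also ended when only Huh7 arrays were fitted (adjusted p = 0.0871). GPC3, a marker of liver cancer cells, fell by 1.53 in Hep3B and by 1.15 in Huh7. Of 17 markers of stellate, endothelial, blood and bile duct cells, only CD68 was above background in Hep3B, and only CD68 and LUM in Huh7. Their summed linear level was 884 to 983 on Hep3B siRNA arrays and 704 to 763 on Hep3B control arrays, and 638 to 796 on Huh7 siRNA arrays and 466 to 507 on Huh7 control arrays. Without CD68 the sums overlapped, at 221 to 233 on Hep3B siRNA arrays and 227 to 234 on Hep3B control arrays, and at 284 to 301 on Huh7 siRNA arrays and 272 to 298 on Huh7 control arrays. The leukocyte and macrophage markers PTPRC, CD14, CD163 and CSF1R were at background. The part of these markers in the flippase values was not tested.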

How the data were processed

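The deposited table holds log2 values with 1 column per array; the submitters' processing notes name Agilent Feature Extraction 10.7.1.1, while the labels also give an Affymetrix labelling protocol, and how the authors summarised probes is not given in the sources used here. Of 70523 rows, 67528 transcript cluster rows were quantile normalized. The brightest probe of each symbol was kept, which left 66212 rows. Symbols came from the platform's probe table, and the RefSeq symbol replaced them where the gene identifier matched.

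Group means were fitted on the 12 arrays together with limma 3.58.1 in R 4.3.3 (lmFit, and eBayes with a trend); plots were drawn with matplotlib 3.10.9 under Python 3.11.15. Tests were two-sided, with Benjamini-Hochberg adjustment across the 66212 rows; "called" means an adjusted p under 0.05. Differences between lines are Hep3B minus Huh7. The procedure was tested on simulated data in which 200 of 66212 rows were changed in Hep3B, fewer than the 6810 called in the data. The adjustment is stricter where fewer rows change, so the recovered shares may be too low for these data. It recovered 44% of log2 changes of 0.5 and 78% of changes of 1 in Hep3B. In the difference between lines it recovered 18% and 62%, so a relative that was not called there may still differ. The number of arrays limits the precision.

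The members, the 10 gene lists and the rules were chosen with earlier results of these data known. The rule for named genes took all flippases, the further family members, up to 4 called genes above background with the largest change per list and siRNA comparison, the 6 genes most like ATP10D, its neighbours, and ALB, AFP and GPC3; not all are printed. Alternatives were median centring, the values as deposited, cyclic loess, testing only rows above background, averaging probes, array weights, no variance trend, a replicate block, fitting only the compared arrays, and each array left out in turn.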

Additional observations from a re-analysis of the deposited data

Results flagged for a closer look

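The difference between lines (effect of siRNA in Hep3B minus that in Huh7, log2) was called for 1240 rows, 1.87% of those tested, and the calls among list genes named by the rule are given here. The genes chosen for their likeness to ATP10D are left out, since their pattern was used to choose them. ASAH1, the acid ceramidase, had -0.70 ± 0.11 (SE; adjusted p = 0.0114) and its call ended with the replicate block (adjusted p = 0.0822). MON2, the Golgi scaffold, had -0.62 (adjusted p = 0.0168), a call that ended without Hep3B control array 1 or 3 (adjusted p of 0.052 and 0.0519), with median centring (0.073) and with the block (0.0962). CERT1, the ceramide carrier, had 0.52 (adjusted p = 0.017), which ended without Hep3B control array 1 or 3 or siRNA array 2 (adjusted p of 0.0506 to 0.053), with median centring (0.0946) and with the block (0.11). ARFGEF2 had -0.46 (adjusted p = 0.0298), from 0.01 in Hep3B and 0.47 in Huh7, and ANO5 had -0.60 (adjusted p = 0.0297). Both calls held without Huh7 siRNA array 3 but ended without any other array (adjusted p of 0.0501 to 0.0938 for ARFGEF2 and 0.0604 to 0.0853 for ANO5), with median centring (0.201 and 0.0601) and with the block (0.141 and 0.0888). ATP13A3, a P-type ATPase that takes up polyamines, had -0.57 (adjusted p = 0.0484). Its call held without Huh7 siRNA array 1 but ended without any other array (adjusted p of 0.0578 to 0.122), with array weights and with the block (0.126).

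Among hepatocyte markers, FGB had 2.33 ± 0.18 (SE; adjusted p = 0.000403), FGA 2.14 ± 0.19 (SE; adjusted p = 0.000572), FGG 1.33 ± 0.16 (SE; adjusted p = 0.00301) and ALB 0.67 ± 0.07 (SE; adjusted p = 0.00118). None of these 4 calls ended under any alternative run. TTR, the transthyretin gene, had -1.03 ± 0.18 (SE; adjusted p = 0.0187), which ended without Hep3B control array 1 or 2 (adjusted p of 0.052 and 0.0579) and with the block (0.0762).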

How the results depend on the processing

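ATP10D changed in Hep3B by -2.61 to -2.49 over the quantile-normalized fit and the other settings, and by -2.64 to -2.57 with each array left out, in Huh7 by -0.17 to -0.07 and -0.23 to -0.09, and in the difference by -2.46 to -2.42 and -2.51 to -2.37. No call of a flippase relative reversed its direction. The relatives called numbered 2 to 3 in Hep3B, 1 in Huh7, 0 in the difference and 6 between controls when each array was left out. With only rows above background the count was 3 in Huh7 and 2 in the difference, and with array weights 1 in the difference (ATP8B1, adjusted p = 0.0491). The cause was not tested, beyond the smaller number of rows tested in the first case. ATP9B in Hep3B also lost its call with the replicate block (adjusted p = 0.0551). With the replicate block 312 rows were called in the difference, against 1240 without it. Replicate numbers were not taken as pairs: same-numbered deviations correlated at 0.18, 0.10 and 0.15 in Hep3B and -0.23, -0.15 and 0.14 in Huh7, and 3 of 6 siRNA arrays matched their own number best. The block could not be fitted for the control comparison. Rows called in the difference were 721 with median centring and 2065 among rows above background, and rows called in Huh7 were 2678 with only the arrays compared, against 5327 with all arrays fitted. With each array left out, rows called ran from 5074 to 6024 in Hep3B (6810 with all arrays), 3993 to 4737 in Huh7, 614 to 1326 in the difference and 11944 to 12596 between controls (13856 with all arrays). Without Hep3B control array 1, 2 or 3 or siRNA array 2 or 3, the difference held 722, 614, 627, 755 and 721. With median centring the share of calls that were higher was 65.9% in Hep3B (54.7% otherwise) and 70.1% in Huh7 (56.7% otherwise). Of 3528 values for other named genes under these settings, 3307 kept their side of the threshold, 184 fell below it and 37 passed it. MON2 in Hep3B missed it with the deposited values (adjusted p = 0.0972) and median centring (0.22). Dim genes such as ATP10A, within background, could show no change.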

Other observations

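LPCAT3, which builds polyunsaturated chains into phosphatidylcholine, had one of the larger changes among lipid genes in both lines, with -0.88 in Hep3B (adjusted p = 0.0111) and -0.78 in Huh7 (adjusted p = 0.0257) on the log2 scale by limma. LPCAT3 had 10.07, 10.24 and 9.29 on the Huh7 siRNA arrays, and without siRNA array 3 its Huh7 change was -0.50 (adjusted p = 0.00298). The Huh7 call ended without any 1 of the 3 Huh7 control arrays (adjusted p of 0.0592 to 0.0817) and when only Huh7 arrays were fitted (adjusted p = 0.149). LPIN2, a phosphatidate phosphatase, rose by 0.48 in Hep3B (adjusted p = 0.00478) and by 0.46 in Huh7 (adjusted p = 0.00823), and the Huh7 call ended when only Huh7 arrays were fitted (adjusted p = 0.0819). DEGS1, the desaturase that completes ceramide, fell by 0.48 in Hep3B (adjusted p = 0.00398) and by 0.38 in Huh7 (adjusted p = 0.0202). The Huh7 call of DEGS1 ended without Huh7 control array 1 or 2 or siRNA array 3 (adjusted p of 0.0619 to 0.0721). ATP13A3, the polyamine transporter, rose by 0.79 in Huh7 (adjusted p = 0.000286), and its change in Hep3B was 0.22 (adjusted p = 0.18).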
